A study of Homo sapiens with 6 samples.

Results

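BSPRY, ESPN and MAP7 rose most after ZEB1 knockdown in SW480 among called genes with non-overlapping groups and a mean of at least 1 CPM. They are described here with 7 relatives, MAP7D1, MAP7D3, EZR, EPS8, EPS8L1, EPS8L2 and MYO5B. The first 3 were chosen by their measured log2 fold changes in these same cultures, and the 7 others were chosen as related genes of microvilli or microtubules. All 10 were found by gene name among the 32029 genes listed, and all 10 passed the filter on low reads that kept 14996 genes. BSPRY and ESPN passed it only through their siZEB1 reads, since no siNC culture held more than 4 reads of either. The files come from an RNA-seq experiment with 6 cultures of SW480, a human colorectal cancer cell line labelled as wild type (WT). Of these, 3 cultures (siNC) received a control siRNA and 3 (siZEB1) an siRNA against ZEB1, a zinc-finger transcription factor that represses epithelial genes, and RNA was taken 48 h after transfection. The methods of the study call the 3 samples of a group biological replicates. All 6 cultures come from 1 cell line and a transient knockdown, and the labels do not give the siRNA sequence or whether it was a pool.

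Each culture had 19040636 to 22357633 reads counted on genes. ZEB1 was at 54.2 ± 6.24 CPM in siNC and 7.51 ± 0.843 CPM in siZEB1 (SD, n = 3 each), where CPM is the usual counts-per-million scale after TMM scaling of the libraries. No culture was a copy of another, and siNC replicate 3 stood farthest from the others of its group. Of 10 colorectal epithelium markers, 9 had reads, and their summed level was 4814 to 5438 CPM in siNC and 5329 to 6002 CPM in siZEB1. Most of this sum was KRT8 and KRT18, at means of 3455 and 1418 CPM in siNC and 3534 and 1460 CPM in siZEB1. Within that list EPCAM (54.7 to 454 CPM), VIL1 (4.08 to 20.7 CPM) and KRT19 (72.3 to 223 CPM) rose. CDX2 fell (103 to 41.8 CPM), and KRT8, KRT18 and KRT20 did not pass the test. CDH17 and LGALS4 stayed below the filter, and CDX1 was not found by name among the genes listed. The summed fibroblast markers were at 13.4 to 14.8 CPM in siNC and 13.1 to 15.2 CPM in siZEB1, the immune cell markers at 0.658 to 0.982 CPM and 0.988 to 1.22 CPM, and the endothelial marker PECAM1 at 1.18 to 1.56 CPM and 1.25 to 1.35 CPM. Within the fibroblast list PDGFRB passed as higher (log2 fold change 0.42, adjusted p = 0.0281 in edgeR), and COL1A1 was at -0.22 (adjusted p = 0.149). The call of PDGFRB was lost without siNC replicate 1, siZEB1 replicate 1 or siZEB1 replicate 3 (adjusted p 0.0714 to 0.0979). It was also lost in DESeq2 (adjusted p = 0.0708) and in edgeR with no filter (adjusted p = 0.0616). In these lists LUM and CD68 had no reads in siNC, and DCN, PTPRC, CDH5 and KDR were not found by name among the genes listed. The part of these markers in the results was not tested.

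Epithelial cells of the intestine carry microvilli on their apical face, finger-like protrusions built around a bundle of parallel actin filaments. Espin (ESPN) and villin bundle the filaments, proteins of the EPS8 family cap and bundle them at the tips, and ezrin (EZR) ties them to the overlying membrane. MYO5B is a motor that walks on actin and delivers RAB11-marked recycling vesicles to the apical surface, and its loss causes microvillus inclusion disease. MAP7, also called ensconsin, binds along microtubules and recruits the motor kinesin-1, and MAP7D1 and MAP7D3 are its paralogs. BSPRY is a B-box and SPRY domain protein of epithelia that binds 14-3-3 proteins and has been linked to the calcium channels TRPV5 and TRPV6.

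The promoters of the members are shown first because ZEB1 binds the E-box letters CACCTG, read as CAGGTG on the other strand. RefSeq promoter windows on GRCh38.p14, each from 250 bases before to 50 bases after an annotated transcript start, matched 8 of the 10 members by symbol. ESPN and EPS8 were not matched. Both strands were searched, and the 2 spellings are reverse complements that cannot overlap each other within 1 match. Of the 8 members, 4 held at least 1 match, and the windows of these 4 are printed 5′ to 3′ along the gene, from 250 bases before the start to 20 bases after it, with each match in capitals.
BSPRY (chr9:113349291-113349560, plus strand): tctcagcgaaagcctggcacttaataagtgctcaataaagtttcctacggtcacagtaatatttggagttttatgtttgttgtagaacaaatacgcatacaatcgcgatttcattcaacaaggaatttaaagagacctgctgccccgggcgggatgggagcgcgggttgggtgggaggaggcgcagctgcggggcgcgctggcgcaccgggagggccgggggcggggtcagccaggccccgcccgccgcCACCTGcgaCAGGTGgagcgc
MAP7 (chr6:136550403-136550672, minus strand): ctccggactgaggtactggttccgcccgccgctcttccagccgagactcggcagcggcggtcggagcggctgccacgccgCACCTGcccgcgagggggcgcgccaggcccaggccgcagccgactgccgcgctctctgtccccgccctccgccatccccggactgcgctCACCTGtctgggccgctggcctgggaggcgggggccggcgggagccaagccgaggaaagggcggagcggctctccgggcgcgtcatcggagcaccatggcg
EPS8L1 (chr19:55075619-55075888, plus strand): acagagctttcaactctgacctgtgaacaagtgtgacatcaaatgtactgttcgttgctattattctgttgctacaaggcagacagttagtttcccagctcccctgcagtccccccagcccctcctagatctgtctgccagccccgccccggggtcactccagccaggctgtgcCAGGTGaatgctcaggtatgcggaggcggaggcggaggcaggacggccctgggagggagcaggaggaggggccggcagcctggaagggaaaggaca
MYO5B (chr18:50195128-50195397, minus strand): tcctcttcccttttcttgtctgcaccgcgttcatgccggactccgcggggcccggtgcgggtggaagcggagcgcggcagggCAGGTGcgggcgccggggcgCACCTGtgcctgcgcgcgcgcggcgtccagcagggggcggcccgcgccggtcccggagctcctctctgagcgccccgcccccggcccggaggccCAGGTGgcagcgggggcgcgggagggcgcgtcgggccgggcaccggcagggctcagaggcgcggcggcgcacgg
BSPRY held 2 matches that straddle and follow the start, with first bases at position -1 and position 9 counted from the start. In MAP7, the first of 4 windows held 2 matches, at -170 and -81, and the other 3 windows held none. EPS8L1 held 1 match at -76 in the first of its 2 windows, and MYO5B held 3 matches, at -168, -148 and -54. The windows of MAP7D1, MAP7D3, EZR and EPS8L2 held no match, which says only that these letters are not in these windows. Of all 35116 windows in the table, 20.6% held at least 1 match, 3.49% at least 2 and 0.635% at least 3. Counted per gene, as for the members, 24.3% of all tested genes with a window held a match. The share was 27.5% for genes that rose, 23.4% for genes that fell and 23.5% for genes that did not pass the test. Among the paralogs, MYO5C, MYO5A, EPS8L3 and ESPNL each held 1 match and RDX, MSN and MAP7D2 held none. A match here is a description of the letters, not a measured binding site.

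**Figure D1:**
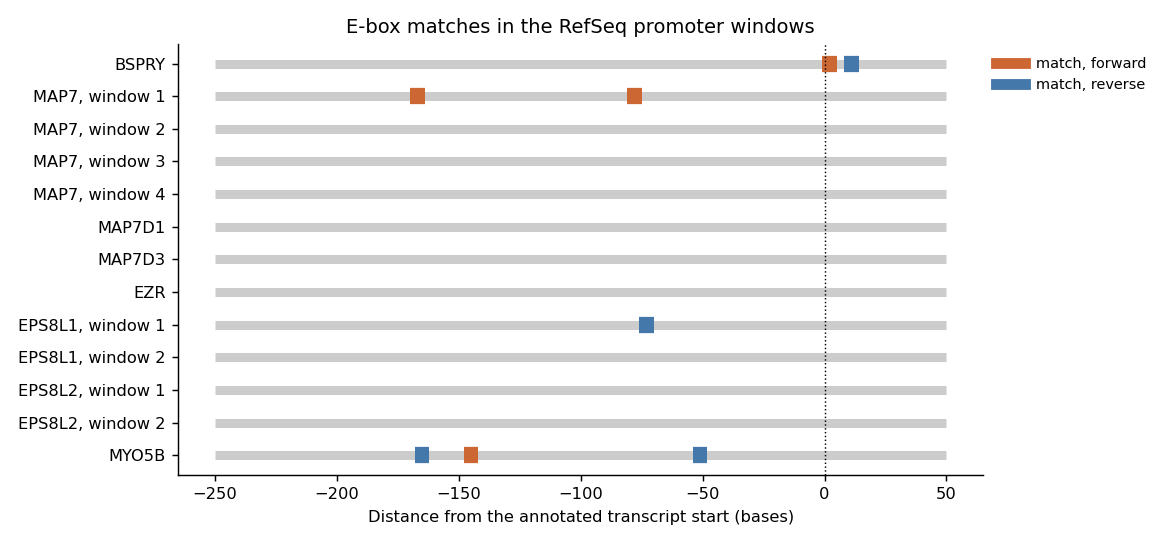
Positions of the E-box matches in each RefSeq promoter window of the 8 matched members, with distance from the annotated transcript start in bases on the x axis and the strand of the match as colour. BSPRY, the first MAP7 window, the first EPS8L1 window and MYO5B hold 2, 2, 1 and 3 matches, and the other windows hold none.

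BSPRY (ENSG00000119411, chromosome 9 from 113349541 to 113371233, plus strand, GRCh38) had at most 3 reads in any control culture. Its reads were 3, 0 and 2 in siNC and 60, 84 and 84 in siZEB1. The level was 0.0816 ± 0.0731 CPM in siNC and 3.98 ± 0.693 CPM in siZEB1 (SD, n = 3 each). Every siZEB1 culture lay above every siNC culture, which the choice of BSPRY, ESPN and MAP7 required, and 1 siNC culture had no read at all. In bulk RNA, more cells with the transcript and more transcript per cell cannot be told apart. The log2 fold change, siZEB1 over siNC, was 5.54 (SE 0.42), the largest of the 14996 genes kept. Because the siNC cultures together held 5 reads, the ratio of the scaled read sums, 50.1, had a 95% exact counting interval from 21.2 to 156, which covers counting error only. The estimate depended on which culture was left out, at 4.94 without siNC replicate 2 and 6.19 without siNC replicate 1. None of its exonic bases was shared with another annotated gene, and no 50-base stretch of its transcripts was found in another gene.

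ESPN (ENSG00000187017, chromosome 1 from 6424776 to 6461367, plus strand), the actin-bundling protein of microvilli and of the stereocilia of the inner ear, ranked 4 among the genes kept by log2 fold change, and MAP7 ranked 5. It had 3, 4 and 3 reads in siNC and 69, 59 and 43 reads in siZEB1. The level went from 0.158 ± 0.0189 CPM to 2.99 ± 0.707 CPM (SD, n = 3 each), and the groups did not overlap. The log2 fold change was 4.18 (SE 0.36), and the ratio of scaled read sums was 18.8, with a 95% exact counting interval from 9.98 to 39.9. ESPN has a pseudogene, ESPNP, on the same chromosome from 16687339 to 16720157, and 12.9% of the 50-base stretches of ESPNP also occur in other genes, most often in ESPN. ESPNP had 1, 19 and 4 reads in siNC and 7, 8 and 8 in siZEB1, so the counting could have divided reads between the copies. With both rows summed, the reads were 4, 23 and 7 in siNC and 76, 67 and 51 in siZEB1, still without overlap. The log2 fold change of the sum was 2.64 (SE 0.36), a 6.24-fold change, and it was 3.61 (SE 0.38), a 12.2-fold change, without siNC replicate 2, which held 19 of the ESPNP reads. With any other culture left out it was 2.23 to 2.79, a check added after the data were seen. Exons on the opposite strand, of TNFRSF25 and AL031848.1, cover 5.77% of the exonic bases of ESPN, and without a stated strand setting reads there cannot be told apart. Of the 50-base stretches of ESPN, 7.86% also occur in other genes on either strand, most often in TNFRSF25. The related gene ESPNL had 2, 1 and 4 reads in siNC and 5, 3 and 5 in siZEB1, below the filter.

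**Figure D2:**
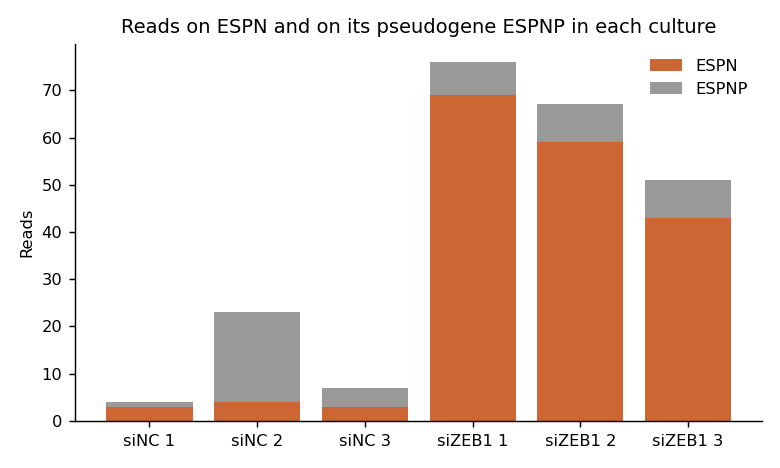
Reads counted on ESPN and on its pseudogene ESPNP, stacked, in each of the 6 cultures, with no error bars since each bar is 1 culture. The sum is 4 to 23 reads in siNC and 51 to 76 in siZEB1, and siNC replicate 2 holds 19 reads on ESPNP.

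MAP7 (ENSG00000135525, chromosome 6 from 136342281 to 136550819, minus strand) had the most reads of the 3 and the tightest estimate. Its reads were 26, 16 and 21 in siNC and 314, 297 and 338 in siZEB1. The level was 1.01 ± 0.264 CPM in siNC and 16.6 ± 1.11 CPM in siZEB1 (SD, n = 3 each), with no overlap. The log2 fold change was 4.04 (SE 0.16), and the ratio of scaled read sums was 16.6, with a 95% exact counting interval from 12.8 to 21.7. Leaving out each culture in turn kept it between 3.83 and 4.21. Exons of AL024508.2 on the opposite strand cover 2.92% of its exonic bases.

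These 3 genes stand at the edge of a continuous order, since their place in it is what chose them. Among genes called at an adjusted p under 0.05 with groups that did not overlap and a mean of 1 CPM or more, the log2 fold changes just inside the choice were 5.54 for BSPRY, 4.18 for ESPN and 4.04 for MAP7. Just outside it were CDH1 at 4.01, CDH3 at 3.84 and MAB21L4 at 3.69. No p-value is given for the first 3 genes, because the contrast that would be tested is the one that chose them. The genes whose pattern over the 6 cultures was most like theirs were found by the root mean square difference of log2 CPM, each gene centred on its own mean. For BSPRY these were MAP7 (0.40), CDH3 (0.57) and MAB21L4 (0.60). For ESPN they were CDC42BPG (0.12), MAB21L4 (0.21) and CDH3 (0.22), and for MAP7 they were CDH3 (0.21), MAB21L4 (0.24) and CDC42BPG (0.33). The differences are on the log2 scale with a prior count of 2, and they describe likeness over these 6 cultures. This likeness largely restates the difference between siZEB1 and siNC, the contrast that chose the 3 genes. By log2 fold change, MAP7, CDH3, MAB21L4 and CDC42BPG ranked 5, 8, 9 and 10 among the genes kept.

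The genes on either side of the 3 were the nearest by start position among genes kept by the filter. Of these 6, none passed the edgeR test as higher and 1 passed as lower, against 19.0% and 21.2% of all genes tested. Beside BSPRY, WDR31 had 9, 14 and 8 reads in siNC and 20, 14 and 11 in siZEB1 (log2 fold change 0.67, adjusted p = 0.182 in edgeR's quasi-likelihood test), and HDHD3 was at -0.26 (adjusted p = 0.0915). Beside ESPN, HES2 fell from 3.55 ± 0.299 to 1.81 ± 0.341 CPM (SD, n = 3 each), with a fitted log2 change of -0.97 (SE 0.20, adjusted p = 0.000886). TNFRSF25, on the other side of ESPN and partly overlapping it, was at -0.074 (adjusted p = 0.784). Beside MAP7, BCLAF1 was at -0.069 (adjusted p = 0.462) and MAP3K5 at -0.18 (adjusted p = 0.301). HDHD3 passed as lower without siNC replicate 1 (-0.33, adjusted p = 0.0499) and MAP3K5 without siNC replicate 3 (-0.32, adjusted p = 0.0322).

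**Figure D3:**
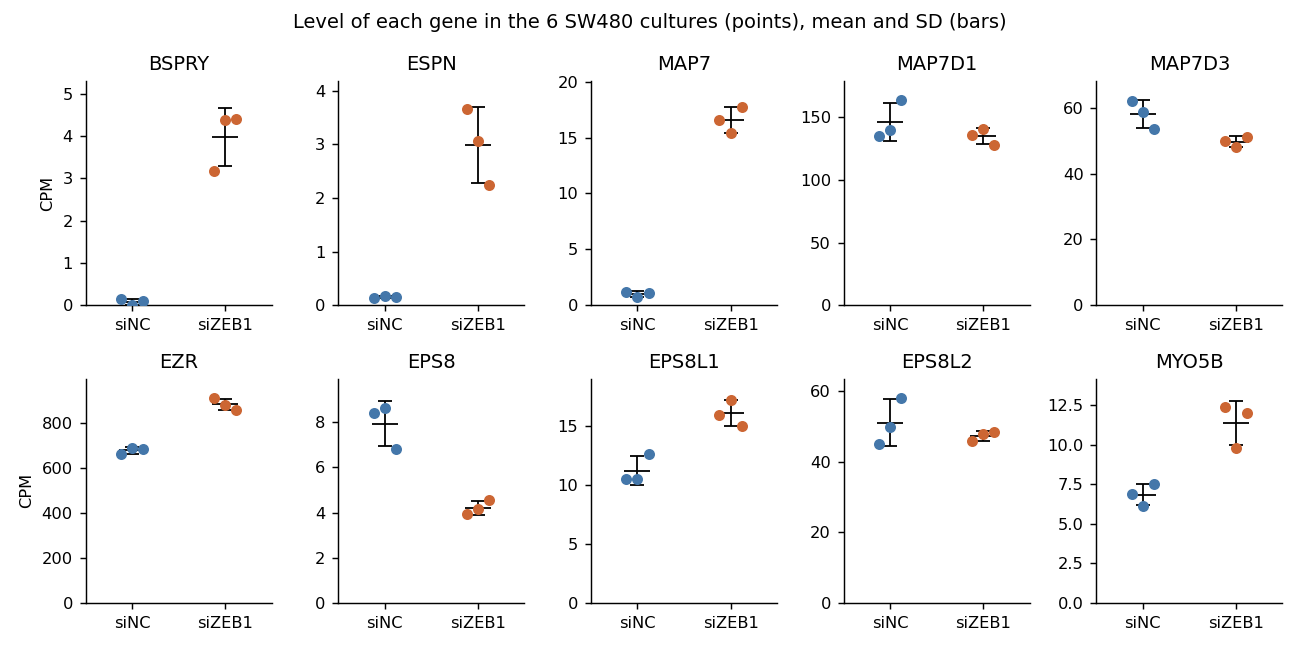
Level in CPM of each of the 10 genes in the 3 siNC and 3 siZEB1 cultures (points), with the mean and SD of each group as bars and each y axis starting at 0. The groups do not overlap for BSPRY, ESPN and MAP7, whose choice required this, nor for MAP7D3, EZR, EPS8, EPS8L1 and MYO5B. They overlap for MAP7D1 and EPS8L2.

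Of the 7 genes chosen by relation, EZR, EPS8L1 and MYO5B rose, EPS8 and MAP7D3 fell, and MAP7D1 and EPS8L2 did not pass the test. Their p-values come from edgeR's quasi-likelihood test, adjusted over all 14996 genes. Over all genes tested, 19.0% passed as higher and 21.2% as lower at an adjusted p under 0.05. The groups did not overlap for 5 of the 7, against 49.5% of all genes tested. The median log2 fold change of the 7 was -0.11, beside -0.0055 over all genes tested. With the thresholds set to a 1.5-fold change and a raw p under 0.001, 4.52% of all genes were higher and 6.70% lower, and of the 7 genes MYO5B passed as higher and EPS8 as lower. With 7 genes, these counts describe the genes and not a group.

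The 2 paralogs of MAP7 among the members, both microtubule-binding proteins, had many more reads than MAP7, and neither passed the test as higher. MAP7D1 (chromosome 1 from 36155579 to 36180849, plus strand) had 2867, 3129 and 3171 reads in siNC and 2568, 2718 and 2447 in siZEB1. Its level was 146 ± 15.9 CPM in siNC and 135 ± 6.8 CPM in siZEB1 (SD, n = 3 each), with overlapping groups and a fitted log2 change of -0.12 (SE 0.075, adjusted p = 0.238). MAP7D3 (chromosome X from 136213220 to 136256482, minus strand) had 1320, 1316 and 1033 reads in siNC and 946, 923 and 979 in siZEB1. It fell from 58.1 ± 4.28 to 49.8 ± 1.6 CPM, with a fitted log2 change of -0.23 (SE 0.073, adjusted p = 0.0205). The call did not hold in 4 of the 6 leave-one-out fits, namely without siNC replicate 1 or 2 and without siZEB1 replicate 1 or 2, with adjusted p up to 0.0891. MAP7D2, the remaining paralog, had 72, 52 and 49 reads in siNC and 73, 79 and 70 in siZEB1. The fitted log2 change was 0.50 (SE 0.18, adjusted p = 0.0392), a call lost in 6 of 12 alternatives, with adjusted p from 0.0128 to 0.164. It was lost without siNC replicate 2 or 3, without siZEB1 replicate 1 or 2, with the replicate block and in DESeq2.

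Levels of different genes are compared per kilobase of exon. In siNC, MAP7 was at 0.185 ± 0.0484 CPM per kb, MAP7D2 at 0.628 ± 0.128, MAP7D3 at 8.23 ± 0.606 and MAP7D1 at 27.8 ± 3.02 (SD, n = 3 each). In siZEB1 the same levels were 3.04 ± 0.203, 0.886 ± 0.0516, 7.04 ± 0.227 and 25.6 ± 1.29 CPM per kb. MAP7 thus changed place with MAP7D2 and remained below MAP7D3 and MAP7D1, and the neighbours in each order did not overlap. The log2 ratio of MAP7D1 to MAP7D3 was 1.33 ± 0.26 in siNC and 1.44 ± 0.12 in siZEB1 (SD, n = 3 each, exact permutation p = 0.5, adjusted p = 0.5 over 8 pairs).

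EZR (chromosome 6 from 158765741 to 158819412, minus strand) was the most abundant member. Its reads were 14079, 15474 and 13210 in siNC and 17217, 16928 and 16463 in siZEB1. It rose from 679 ± 15.3 to 884 ± 26.1 CPM (SD, n = 3 each), with a fitted log2 change of 0.38 (SE 0.050, adjusted p = 1.15e-05), which is small but larger than the spread between cultures. Radixin (RDX), a paralog that also joins actin to the membrane, fell from 156 ± 17.1 to 124 ± 7.64 CPM (log2 fold change -0.34, SE 0.077, adjusted p = 0.00206). Moesin (MSN), the third of these proteins, was at 650 ± 24.1 and 623 ± 16.2 CPM (log2 fold change -0.06, SE 0.052, adjusted p = 0.387). Per kilobase, EZR was at 203 ± 4.57 CPM in siNC and 265 ± 7.81 in siZEB1, above MSN at 109 ± 4.04 and 104 ± 2.72 and RDX at 18.3 ± 2.0 and 14.5 ± 0.896. The log2 ratio of RDX to EZR differed by -0.71 between the groups and that of MSN to EZR by -0.44. For both ratios the cultures did not overlap, and the exact permutation p was 0.1, the smallest that 3 cultures against 3 can give (adjusted p = 0.114 over 8 pairs).

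The EPS8 family moved in both directions. EPS8 (chromosome 12 from 15620158 to 15882329, minus strand), which caps and bundles actin filaments and also acts with ABI1 and SOS1 on the GTPase RAC1, had 179, 193 and 131 reads in siNC and 74, 80 and 87 in siZEB1. It fell from 7.94 ± 1.0 to 4.21 ± 0.316 CPM (SD, n = 3 each), with a fitted log2 change of -0.92 (SE 0.14, adjusted p = 6.36e-05). EPS8L1 (chromosome 19 from 55072020 to 55087923, plus strand) had 223, 235 and 243 reads in siNC and 301, 331 and 288 in siZEB1. It rose from 11.2 ± 1.22 to 16.1 ± 1.09 CPM, with a fitted log2 change of 0.52 (SE 0.10, adjusted p = 0.0007). EPS8L2 (chromosome 11 from 694438 to 727727, plus strand) had 957, 1119 and 1122 reads in siNC and 864, 920 and 928 in siZEB1. Its level was 51.1 ± 6.67 and 47.4 ± 1.42 CPM, with overlapping groups and a fitted log2 change of -0.11 (SE 0.086, adjusted p = 0.345). EPS8L3, the remaining paralog, fell from 38.1 ± 2.65 to 23.2 ± 1.94 CPM (log2 fold change -0.72, SE 0.086, adjusted p = 4.35e-06).

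Within the family, the order of levels per kilobase changed at the top. In siNC, EPS8L3 was at 11.0 ± 0.762 CPM per kb, EPS8L2 at 8.97 ± 1.17, EPS8L1 at 2.10 ± 0.229 and EPS8 at 0.914 ± 0.115 (SD, n = 3 each). In siZEB1, EPS8L2 led at 8.32 ± 0.25, followed by EPS8L3 at 6.66 ± 0.557, EPS8L1 at 3.01 ± 0.204 and EPS8 at 0.484 ± 0.0363. In siNC the lowest EPS8L3 culture lay only just above the highest EPS8L2 culture, whereas in siZEB1 the cultures of these genes stood clear of each other. Exons of AP006621.4 and DEAF1 on the opposite strand cover 4.6% of the exonic bases of EPS8L2. Without a stated strand setting, reads there cannot be told apart. The log2 ratio of EPS8L1 to EPS8 was 0.32, 0.28 and 0.89 in siNC and 2.02, 2.05 and 1.73 in siZEB1. The difference between the group means was 1.44, the widest of the 8 ratios tested, and leaving out each culture kept it between 1.33 and 1.63. The log2 ratios of EPS8L2 to EPS8 and of EPS8L1 to EPS8L2 differed by 0.81 and 0.63. All 3 ratios had groups without overlap and an exact permutation p of 0.1, the smallest possible here (adjusted p = 0.114). Of the 8 ratios tested, all but that of MAP7D1 to MAP7D3 reached this p. Each of those that did includes a gene called on its own, so their separation partly restates those calls. Single genes had groups without overlap in 49.5% of all genes tested.

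MYO5B (chromosome 18 from 49822813 to 50195093, minus strand) had 146, 138 and 145 reads in siNC and 235, 188 and 230 in siZEB1. It rose from 6.85 ± 0.68 to 11.4 ± 1.43 CPM (SD, n = 3 each), with a fitted log2 change of 0.74 (SE 0.13, adjusted p = 0.000162). Another annotated gene on the same strand, AC090227.1, shares 5.25% of its exonic bases, and SNHG22 exons on the opposite strand cover 2.18%. Of the 50-base stretches of MYO5B, 7.37% also occur in other genes, most often in AC090227.1. MYO5C, a class V myosin of epithelial and secretory cells, had 41, 30 and 31 reads in siNC and 90, 55 and 79 in siZEB1, a rise of 1.27 on the log2 scale (SE 0.23, adjusted p = 0.000253). MYO5A, the paralog best known for moving melanosomes, was at 50.1 ± 3.84 and 44.8 ± 3.15 CPM (log2 fold change -0.16, SE 0.079, adjusted p = 0.11). Without siNC replicate 3 or without siZEB1 replicate 3 it passed as lower, with adjusted p = 0.0215 and 0.047. Per kilobase, MYO5A was at 3.86 ± 0.296 CPM in siNC and 3.45 ± 0.242 in siZEB1, MYO5B at 0.653 ± 0.0648 and 1.09 ± 0.137, and MYO5C at 0.162 ± 0.0293 and 0.390 ± 0.0966. The order was the same in both groups. The log2 ratio of MYO5A to MYO5B differed by -0.90 between the groups and that of MYO5C to MYO5B by 0.52, each with an exact permutation p of 0.1 and an adjusted p of 0.114.

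**Figure D4:**
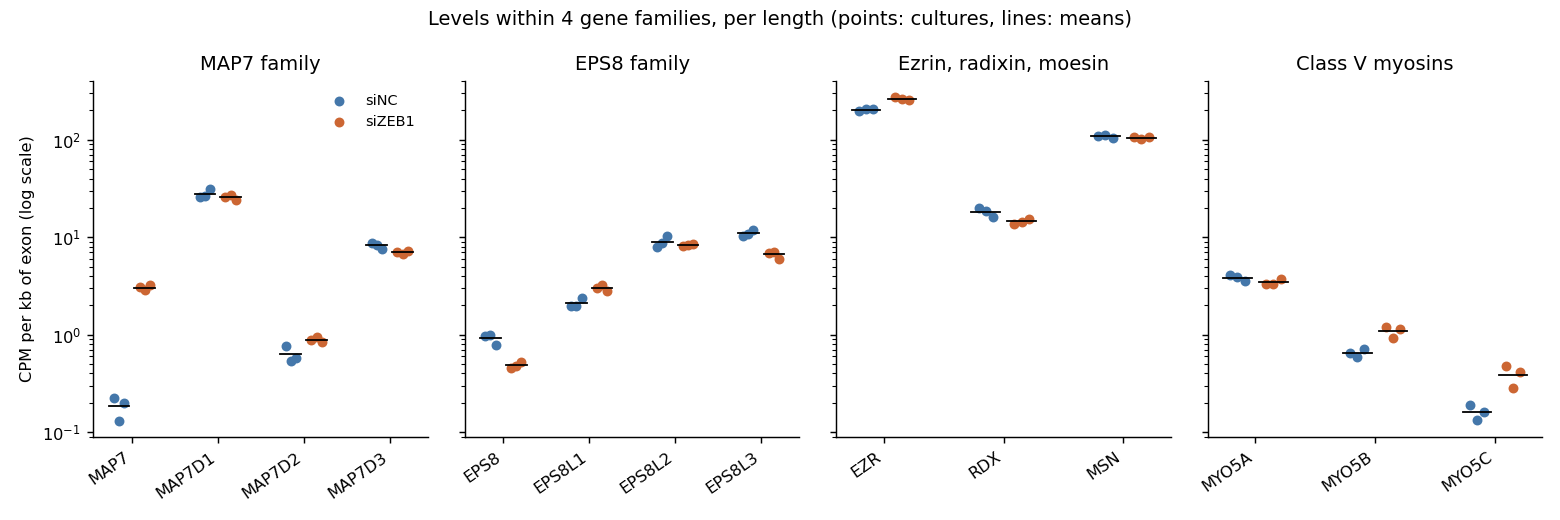
Levels per length (CPM per kilobase of exon, log scale) of the MAP7, EPS8, ezrin and class V myosin families, with each culture as a point and each group mean as a line. MAP7 lies below MAP7D2 in siNC and above it in siZEB1, and EPS8L2 and EPS8L3 change order.

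Other genes of the same structures were read from lists that leave out the 10 members, to set the members beside the rest of the machinery. Over all genes tested, 19.0% passed as higher and 21.2% as lower. The percentages given for each list are of its tested genes, and no list was tested as a group. Of 23 microvillus and brush border genes, 19 were tested, of which 4 rose (21.1%) and 5 fell (26.3%). Their median log2 fold change was 0.039. VIL1, villin itself, had 75, 94 and 87 reads in siNC and 384, 429 and 371 in siZEB1, and it rose by 2.34 on the log2 scale (SE 0.12, adjusted p = 1.69e-10). MYO1A, the brush border myosin, had 16, 17 and 15 reads in siNC and 3, 2 and 5 in siZEB1, and it fell by 2.09 (SE 0.46). MYO1A passed the filter only through its siNC reads. This limits its call among the genes that fell, and no p-value is given for it. USH1C, the scaffold of the links between microvillus tips, fell from 8.73 ± 0.559 to 3.06 ± 0.291 CPM (log2 fold change -1.51, SE 0.14). The myosins MYO6 and MYO1D rose, with log2 fold changes of 0.95 and 0.79. The actin bundler PLS1 was at 0.17 (adjusted p = 0.0744) and the tip-link cadherin CDHR2 at 0.039 (adjusted p = 0.956), neither past the test. Both were named after their values were seen. CDHR5, CALML4, ANKS4B and ESPNL stayed below the filter.

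Of 21 partners and relatives of ezrin, all tested, 2 rose (9.52%) and 7 fell (33.3%, median -0.06). The membrane proteins of the list did not move together. ICAM1, an adhesion receptor, went from 126 ± 2.32 to 57.9 ± 0.913 CPM (log2 fold change -1.12, SE 0.062), and the sialomucin PODXL from 64.6 ± 8.13 to 30.7 ± 3.36 CPM (-1.07, SE 0.096). CD44, ICAM2, MSLN and MUC1, at 0.061, -0.22, -0.096 and 0.45, did not pass the test (adjusted p = 0.436, 0.527, 0.825 and 0.341), and they were named after their values were seen. The scaffold SLC9A3R2 was at -0.93 (SE 0.12) and AKAP9, which anchors protein kinase A, at -0.50 (SE 0.097).

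Of 25 genes of the EPS8 complex and of filopodia, all tested, 8 rose (32%) and 6 fell (24%, median 0.059). RAC1, the GTPase that the EPS8 complex activates, rose from 299 ± 21.8 to 496 ± 17.5 CPM (log2 fold change 0.73, SE 0.061). EGFR, the receptor whose substrate gave EPS8 its name, fell from 112 ± 11.5 to 57.4 ± 5.92 CPM (-0.96, SE 0.087). The actin nucleator DIAPH1 rose by 0.57, the WAVE complex subunit BRK1 rose by 0.46 and the adaptor ABI3 fell by 0.79 on the log2 scale.

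Of 25 genes of MYO5B, RAB11 and apical delivery, 24 were tested, of which 6 rose (25%) and 4 fell (16.7%, median 0.00049). Besides MYO5C, the myosin chaperone UNC45A rose from 41.6 ± 2.31 to 59.7 ± 1.4 CPM (log2 fold change 0.52, SE 0.070) and the apical syntaxin STX3 from 268 ± 9.83 to 366 ± 2.96 CPM (0.45, SE 0.054). SNAP23, a SNARE of the plasma membrane, fell from 9.64 ± 1.39 to 4.79 ± 0.349 CPM (-1.01, SE 0.14), and VIPAS39, a partner of VPS33B in apical sorting, fell by 0.64 on the log2 scale. RAB25, the epithelial RAB11 relative, stayed below the filter.

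Of 36 microtubule-associated proteins, 34 were tested, of which 8 rose (23.5%) and 12 fell (35.3%, median -0.092). MAP1A fell from 1.97 ± 0.278 to 0.613 ± 0.205 CPM (log2 fold change -1.67, SE 0.30) and MAP6, which stabilises microtubules, from 4.62 ± 0.319 to 2.43 ± 0.0898 CPM (-0.93, SE 0.16). CLASP1, a plus-end rescue factor, fell from 82.1 ± 5.14 to 44.3 ± 3.34 CPM (-0.89, SE 0.076), while TPPP3 was at -1.26 and EML3 at -0.72. TPPP3 passed the filter only through its siNC reads, with 5 reads in each siZEB1 culture. MAP1A was near the filter in siZEB1, with 16, 10 and 9 reads. The call of TPPP3 was lost when siNC replicate 2 or 3 or any siZEB1 replicate was left out (adjusted p 0.066 to 0.0854). It was also lost in DESeq2 (adjusted p = 0.0975) and in edgeR with no filter (adjusted p = 0.0721). Of 18 kinesin-1 and tubulin genes, 17 were tested, of which 2 rose (11.8%) and 7 fell (41.2%, median -0.061). KIF5B, the kinesin-1 heavy chain that MAP7 recruits, fell from 285 ± 36.3 to 221 ± 22.7 CPM (-0.36, SE 0.086, adjusted p = 0.00268). The light chain KLC3 rose from 0.981 ± 0.283 to 2.31 ± 0.179 CPM (1.24, SE 0.26), TUBA1C rose by 0.57, and TUBB2B and TUBB2A fell by 0.41 and 0.39 on the log2 scale. The tubulin genes are close copies of each other, so their division of reads is uncertain.

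Of 9 BSPRY partners, 7 were tested and 3 of them rose (42.9%, median 0.12). These were the 14-3-3 genes YWHAH (108 ± 1.48 to 141 ± 4.43 CPM, log2 fold change 0.39, SE 0.06), YWHAG (485 ± 36.0 to 600 ± 24.5 CPM, 0.31, SE 0.06) and YWHAB (563 ± 10.7 to 628 ± 11.7 CPM, 0.16, SE 0.05). The call of YWHAB was lost without siNC replicate 2, siZEB1 replicate 1 or siZEB1 replicate 2 (adjusted p 0.0612 to 0.0829). The other 4 did not pass the test. The channel genes stayed below the filter, with 1 read over the siNC cultures and 2 over the siZEB1 cultures for TRPV5, and 9 and 19 reads for TRPV6.

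**Figure D5:**
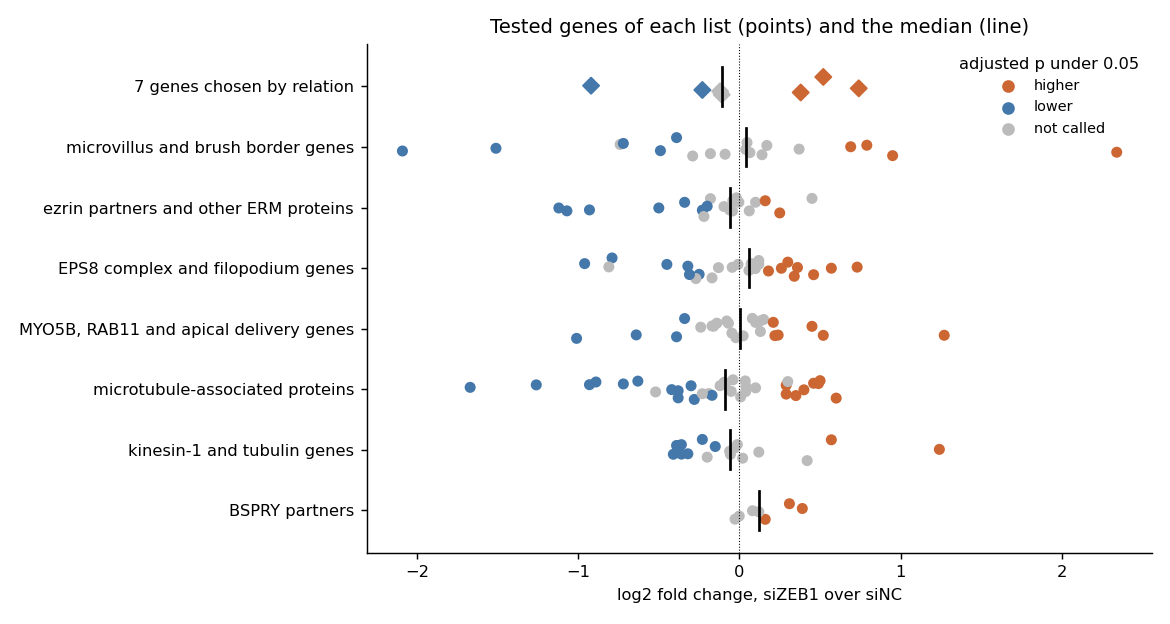
Log2 fold change, siZEB1 over siNC, of each tested gene (points) in the 7 lists and in the 7 genes chosen by relation, coloured by whether it passed as higher or lower at an adjusted p under 0.05, with the median as a line. The list medians lie between -0.092 and 0.12, and VIL1 at 2.34 is the rightmost point and MYO1A at -2.09 the leftmost.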

How the data were processed

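RNA-seq of 6 SW480 cultures was analysed. The authors deposited whole-number counts of reads per Ensembl gene for each culture, without normalization. The submitters' processing notes name Trimmomatic, HISAT2, SAMtools and featureCounts with the build hg38. Versions, the annotation release and the strand setting are not given in the sources used here. Coordinates, exon lengths and shared 50-base stretches were taken from GENCODE 29 on GRCh38, in which 31059 of the 32029 genes listed were found, and promoters from RefSeq tables of GRCh38.p14.

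Genes were kept by filterByExpr with the condition as group (14996 genes), scaled by TMM and tested by the quasi-likelihood test of edgeR 4.0.16 in R 4.3.3, as a two-sided test with no covariate, and p was adjusted by Benjamini-Hochberg over all genes kept. A gene was called at an adjusted p under 0.05. The biological coefficient of variation was 6.58%. SE is the log2 fold change over the square root of F. CPM used these TMM factors, and levels per kb divide CPM by the union of exons. Ratios of 2 genes were compared by an exact permutation test over the cultures. The test was checked on simulated data. Python 3.11.15 with scipy 1.17.1 and pandas 2.3.3 was used for the other steps.

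The members and lists were chosen with earlier results of these data known. The genes named were all members, ZEB1, the family paralogs, the nearest kept genes on either side of BSPRY, ESPN and MAP7, the 3 genes most like each of them, and up to 5 called genes with the largest change in each list, apart from genes said to be named after their values were seen, marker genes and the genes just outside the choice. The alternatives were DESeq2 1.42.0, median-of-ratios or total library size scaling, no filter, a mean of at least 10 reads, leaving out each culture, a block for the replicate number, a prior count of 2, ESPN and ESPNP reads summed (also with each culture left out, added after the data were seen), an adjusted p under 0.01, and a 1.5-fold change with a raw p under 0.001.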

Additional observations from a re-analysis of the deposited data

How the results depend on the processing

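Among the members, family paralogs and family ratios, no difference changed sign under the alternatives run. Another 43 named genes (called list genes, neighbours, PLS1 and CDHR2) were refitted under the same alternatives after the data were seen, and among them TNFRSF25 (-0.26 to 0.049) and CDHR2 (-0.35 to 0.31), neither called, changed sign when a culture was left out. The list medians were not recomputed. Setting the call at a 1.5-fold change and a raw p under 0.001 moved the counts most. It gave 678 genes higher and 1004 lower (4.52% and 6.70% of all genes tested) and 2 of the 7 genes chosen by relation. Of the microvillus and brush border genes, 7 passed that rule, against 9 at an adjusted p under 0.05. The other lists kept 3 among the ezrin partners, 3 in the EPS8 complex list, 3 in the MYO5B and RAB11 list, 6 microtubule-associated proteins and 1 kinesin-1 or tubulin gene. Of the BSPRY partners, 0 passed it in edgeR, where 4 of 7 had an unadjusted p under 0.05 and 3 an adjusted p under 0.05, and DESeq2 at an adjusted p under 0.05 also called 3. A prior count of 2 gave log2 fold changes of 4.51 for BSPRY and 3.58 for ESPN. Leaving out each culture in turn gave 2305 to 2928 genes higher, 2637 to 3311 lower, and 4 to 5 of the 7 related genes.

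The labels do not say whether the replicate numbers pair the cultures. Deviations from the group means of same-numbered cultures correlated at -0.0517, -0.0883 and -0.2, and no culture correlated best with its own number. With 3 cultures a group, each centred on its group mean, these values cannot settle whether the numbers pair. With the replicate number as a block, 2289 genes were higher and 2679 lower, 4 of the 7 related genes were called, and MAP7D3 (-0.22, adjusted p = 0.0782) and MAP7D2 (0.50, adjusted p = 0.053) lost their calls, as did TPPP3, PDGFRB and YWHAB among the other genes. The log2 fold changes of BSPRY, ESPN and MAP7 with the block were 5.53, 4.19 and 4.04. Depth limits the control levels of BSPRY and ESPN, which rest on 5 and 10 reads over 3 cultures. The per-kb levels assume the union of GENCODE 29 exons, whatever isoforms the cells used.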
